A study of Chilo suppressalis with 6 samples.

Results

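The 150 transcripts described here are the well-expressed genes whose level varied least across 6 libraries of *Chilo suppressalis* larvae, out of 38966 genes in the deposited table. They were chosen on the measured values themselves. A gene had to reach 10 FPKM in every library, could not be among the 100 genes of highest mean FPKM, and needed FPKM ranges that overlapped between the Eβf and control groups. Of genes with identical values the first was kept. The 1521 genes that met these conditions were ranked by the standard deviation (SD) of log2(FPKM + 1) over the libraries, and the 150 lowest are called the stable transcripts. FPKM is a fragment count divided by gene length and by the number of fragments sequenced in the library. Low spread, well-expressed level and overlapping groups are therefore conditions of entry and not findings.

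Until the 3rd instar, larvae of this rice pest fed on artificial diet that held either (E)-β-farnesene (Eβf) at 0.8 g/kg or solvent as the control. All larvae belonged to a laboratory population described as sensitive that had been founded from rice fields. Poly(A) RNA was sequenced in 3 Eβf libraries and 3 control libraries, described as biological replicates. The labels name 6 larvae for RNA extraction, and whether each library pools that many is not settled. Larvae were sampled on stage, and age within the instar is not given. The library names were read as Eβf (TFN) and control (TYC) from their letters, and every direction rests on that reading.

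Eβf is an acyclic sesquiterpene that many plants release after caterpillar attack, and it is also the alarm pheromone of many aphids. Its carbon skeleton resembles that of the juvenile hormones, which keep a caterpillar in its larval form, while ecdysteroids set the timing of each moult. Transcripts that keep a steady level across treatments serve as internal references in quantitative PCR, where a target is expressed relative to a gene assumed not to vary. Genes for translation, the cytoskeleton and basic energy metabolism are the usual candidates in insects. None of the stable transcripts could be assigned to such a role, because 0 of the 150 IDs, and 0 of all IDs in the table, were found among the 11366 genes of the reference annotation (assembly PGI_CHILSU_V6). The genes are given by ID, their sequences and positions are not shown, and the whole-larva origin of the RNA could not be checked against tissue markers for the same reason. In RNA of whole larvae, fewer cells of a type and less RNA per cell cannot be told apart.

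FPKM retains no read counts, so the counting error of a transcript is not known. The smallest steps between low FPKM values gave sequencing depths, relative to control replicate 1, of 0.966 to 1.52 in the Eβf libraries and 0.971 to 1.23 in the control libraries. Over the 11932 genes at 1 FPKM or more in at least 3 libraries, the Pearson correlation of log2(FPKM + 1) between libraries was 0.863 to 0.89 within Eβf and 0.771 to 0.918 within the control. The stable transcripts together accounted for 1.95%, 2.24% and 2.12% of the FPKM of Eβf replicates 1 to 3, against 2.39%, 2.18% and 1.66% in control replicates 1 to 3, where replicate 3 had the smallest share.

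The stable transcripts covered a wide range of levels. Their mean FPKM ran from 12.4 to 2141, with a median of 46.3 and quartiles of 22.3 and 317. The remaining 1371 ranked genes had a median of 64.2 and quartiles of 32.8 and 157. Of the stable transcripts, 81 averaged under 50 FPKM, 31 averaged 50 to 300 FPKM and 38 averaged 300 FPKM or more. These were 12.3% of the 659 ranked genes in the low class, 4.76% of the 651 in the middle class and 18.0% of the 211 in the high class. The middle class thus contributed the fewest for its size. Of the ranked genes under 20 FPKM, 32.7% were stable transcripts, and the floor of 10 FPKM in every library narrows the range open to a gene of so low a mean.

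**Figure D1:**
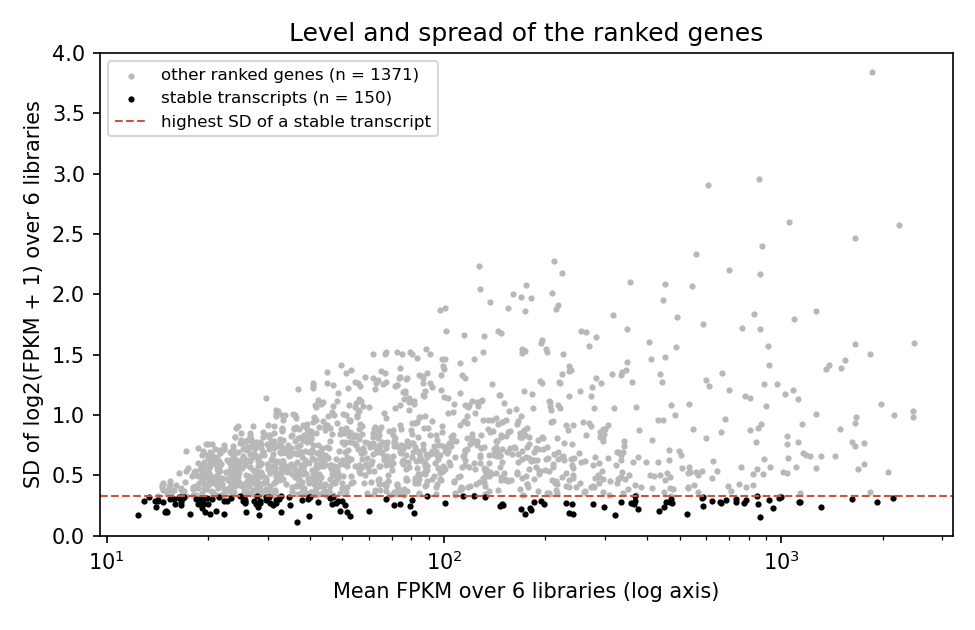
Mean FPKM over the 6 libraries (log axis) against the SD of log2(FPKM + 1) for the 1521 ranked genes, with the 150 stable transcripts in black and the other 1371 in grey. The stable transcripts lie below the dashed line at an SD of 0.33 over the whole range from 12.4 to 2141 FPKM, and the genes just above the line continue the cloud without a gap.

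Within the list the SD ran from 0.109 to 0.33 with a median of 0.278, against a median of 0.656 in the other ranked genes. The highest library exceeded the lowest by 1.24 to 2.04 times, with a median of 1.67, whereas the other ranked genes had a median of 3.43. This ratio stayed under 1.5 in 25 stable transcripts, and it reached 2 only in evm_006887. This gene had 30.2, 37.5 and 25.5 FPKM in Eβf replicates 1 to 3, against 27.2, 28.5 and 18.4 FPKM in control replicates 1 to 3. The SD within the Eβf libraries had a median of 0.242, and that within the control libraries had a median of 0.259. It was larger in Eβf for 71 transcripts and larger in the control for 79.

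The lowest SD of all belonged to evm_001432. It had 37.0, 41.7 and 34.5 FPKM in Eβf replicates 1 to 3, against 33.6, 37.4 and 35.1 FPKM in control replicates 1 to 3. The Eβf libraries averaged 37.8 ± 3.66 FPKM and the control libraries 35.4 ± 1.93 FPKM (SD, n = 3 each), with every control value but the lowest inside the Eβf range. Its SD of 0.109 was well separated from the next value of 0.159, which was that of evm_010224. This gene was expressed at a much higher level, with 795.6, 996.6 and 966.7 FPKM in the Eβf libraries and 750.2, 839.8 and 854.1 FPKM in the control libraries. Replicate 1 was the lowest library of each group for evm_010224.

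The third lowest SD was that of evm_007033, with 34.8, 45.3 and 41.0 FPKM in the Eβf libraries and 34.2, 39.8 and 43.4 FPKM in the control libraries. For evm_009487 the values were 45.5, 50.5 and 54.6 FPKM in Eβf and 63.2, 53.3 and 48.2 FPKM in the control. For evm_005765 they were 322.6, 270.4 and 325.9 FPKM in Eβf and 301.9, 385.5 and 329.1 FPKM in the control. The highest library was Eβf replicate 2 in evm_007033, control replicate 1 in evm_009487 and control replicate 2 in evm_005765, so no single library led these genes. The gene evm_007298 also had the lowest mean of the whole list, with 10.3, 13.0 and 14.7 FPKM in Eβf and 12.7, 12.8 and 10.96 FPKM in the control. Its lowest Eβf value lies just above the floor of 10 FPKM.

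The values of evm_004201 were 34.8, 27.9 and 29.1 FPKM in the Eβf libraries and 27.9, 24.2 and 25.4 FPKM in the control libraries. MSTRG.6168 had 18.4, 14.4 and 18.6 FPKM in Eβf and 16.3, 21.0 and 17.2 FPKM in the control. The ranges overlap only at their ends in evm_004201, where Eβf replicate 2 lay just under control replicate 1, and widely in MSTRG.6168. The gene evm_010931 had 254.8, 249.6 and 233.0 FPKM in Eβf and 248.7, 272.1 and 191.1 FPKM in the control. MSTRG.4189 had 488.2, 611.0 and 614.2 FPKM in Eβf and 495.0, 467.3 and 478.2 FPKM in the control. MSTRG.4189 averaged 571.2 ± 71.8 FPKM in Eβf and 480.2 ± 13.9 FPKM in the control (SD, n = 3 each), and Eβf replicate 1 alone lay inside the narrow control range.

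**Figure D2:**
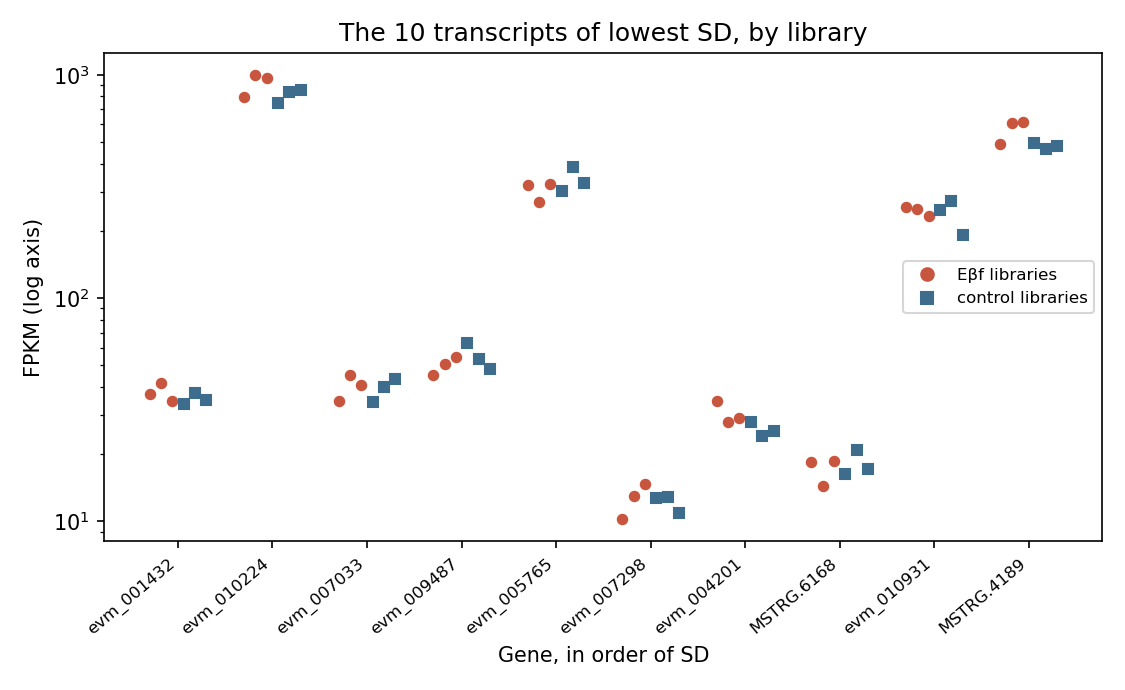
FPKM (log axis) of the 10 transcripts of lowest SD in each library, with the 3 Eβf libraries as red circles and the 3 control libraries as blue squares in replicate order. The groups overlap in all 10 genes, as the choice required, at levels from 10.3 FPKM (the lowest value of evm_007298) to 996.6 FPKM (the highest of evm_010224).

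The most abundant of the stable transcripts was evm_005558, with 1928, 2868 and 2323 FPKM in the Eβf libraries and 2386, 1658 and 1683 FPKM in the control libraries. It was followed by evm_008202, with 1801, 2465 and 2174 FPKM in Eβf and 2019, 1555 and 1494 FPKM in the control. In both of these genes Eβf replicate 2 was the highest library. A contrary order was seen in evm_000030, with 1406, 1547 and 1310 FPKM in Eβf and 2125, 1989 and 1340 FPKM in the control. The same held for evm_011226, with 1138, 1326 and 1168 FPKM in Eβf and 1681, 1473 and 1104 FPKM in the control. The fifth was evm_012944, with 1110, 1336 and 1322 FPKM in Eβf and 1282, 938.0 and 847.6 FPKM in the control. Control replicate 1 was the highest control library in all 5 genes, and control replicate 3 was the lowest control library in every one but evm_005558, where control replicate 2 lay slightly lower.

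At the other end of the level range, after evm_007298, came evm_006689 with 11.6, 10.7 and 14.5 FPKM in the Eβf libraries and 18.4, 11.7 and 10.8 FPKM in the control libraries. MSTRG.27878 had 11.1, 20.2 and 13.8 FPKM in Eβf and 10.98, 12.8 and 11.1 FPKM in the control. A single library stood highest in each of these genes, control replicate 1 in evm_006689 and Eβf replicate 2 in MSTRG.27878. The gene evm_000674 had 10.3, 18.6 and 13.6 FPKM in Eβf and 12.3, 16.4 and 12.6 FPKM in the control, with replicate 2 the highest of each group. MSTRG.22022 had 13.2, 15.2 and 10.9 FPKM in Eβf and 13.6, 13.0 and 18.3 FPKM in the control, and here control replicate 3 was the highest of all libraries.

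The study addressed the direct effects of Eβf on the larvae and how it may act, and the sequencing set the diets side by side. The stable transcripts were chosen to differ little between all libraries, those of the other diet included. In the fit of limma over all 11932 genes tested, 0 of the 150 passed an adjusted p under 0.05 (Benjamini-Hochberg), where 2.05% of all genes tested did. At an unadjusted p under 0.05 the count was again 0, against 15.5% of all genes tested, and non-overlapping groups were barred by the rule, against 21.4% of all genes tested. These counts follow from the choice and carry no information on Eβf. The log2 fold change (Eβf over control, log2(FPKM + 1)) ran from -0.34 to 0.40 with a median of 0.07. An SD of at most 0.33 allows no fold change beyond 0.60 in size with 3 libraries a group. The fold change was under 0.1 in size in 43 transcripts and over 0.3 in 35. It was above 0 in 89 of the 150 (59.3%) and in 852 of the 1371 other ranked genes (62.1%), and the median of all genes tested was 0.16. This direction depended on the scaling. With median-of-ratios scaling 83 of the 150 were above 0 and their median was 0.03. With quantile normalization 23 of the 150 were above 0 and their median was -0.22. With 1 library left out the median ran from 0.02 to 0.19. The standard errors of limma were 0.31 to 0.45 for the stable transcripts. They draw in part on the spread of all genes tested, and not on these transcripts alone.

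The most positive fold change was 0.40 in evm_013371, with 146.1, 131.7 and 171.1 FPKM in the Eβf libraries and 106.8, 143.6 and 93.1 FPKM in the control libraries. It was 0.39 in evm_009226, with 39.7, 56.3 and 65.7 FPKM in Eβf and 40.5, 36.5 and 43.2 FPKM in the control. It was also 0.39 in evm_002224, with 346.2, 413.1 and 376.1 FPKM in Eβf and 353.5, 266.7 and 253.4 FPKM in the control. In each of them the groups would not overlap with 1 library left out. In evm_009226 that library was Eβf replicate 1. In evm_013371 it was either control replicate 2 or Eβf replicate 2, and in evm_002224 either control replicate 1 or Eβf replicate 1. The most negative fold change was -0.34 in MSTRG.21702, with 96.1, 75.3 and 134.0 FPKM in Eβf and 135.2, 126.0 and 116.7 FPKM in the control. It was -0.33 in evm_010287, with 24.4, 24.6 and 35.5 FPKM in Eβf and 31.4, 32.9 and 42.0 FPKM in the control, and -0.33 in evm_000030. In evm_010287 replicate 3 was the highest library of each group, and in MSTRG.21702 Eβf replicate 3 alone reached the control range.

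The limit of the list did not mark a break in the data. Just inside lay MSTRG.21702 with an SD of 0.3282, evm_005252 with 0.3283 and MSTRG.3703 with 0.3300. The values of evm_005252 were 726.2, 754.0 and 752.1 FPKM in the Eβf libraries and 1140, 1055 and 643.6 FPKM in the control libraries. MSTRG.3703 had 31.2, 28.5 and 44.3 FPKM in Eβf and 27.3, 41.0 and 24.5 FPKM in the control. Control replicate 3 was the lowest library in evm_005252, while Eβf replicate 3 and control replicate 2 were the highest of their groups in MSTRG.3703. Just outside lay MSTRG.2423 with an SD of 0.3300, evm_011734 with 0.3302 and MSTRG.15121 with 0.3316. MSTRG.2423 had 10.5, 16.4 and 20 FPKM in Eβf and 14.6, 11.7 and 11.8 FPKM in the control. The values of evm_011734 were 12.5, 20.7 and 19.9 FPKM in Eβf and 18.6, 19.5 and 12.2 FPKM in the control, and those of MSTRG.15121 were 885.3, 1327 and 1124 FPKM in Eβf and 1061, 876.7 and 687.9 FPKM in the control. Eβf replicate 1 and control replicate 3 were the lowest of their groups in both evm_011734 and MSTRG.15121.

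The libraries did not share the high and low values of the stable transcripts evenly. Relative to each gene's own mean of log2(FPKM + 1), the median stable transcript stood at -0.16, 0.15 and 0.13 in Eβf replicates 1 to 3 and at 0.06, -0.02 and -0.21 in control replicates 1 to 3. The other ranked genes stood at -0.33, 0.08 and 0.49 in Eβf replicates 1 to 3 and at 0.11, 0.21 and -0.58 in control replicates 1 to 3. Eβf replicate 1 and control replicate 3 were thus low in both sets. In the sequencing summary of the study, GC content was highest in control replicate 3 and lowest in Eβf replicate 3. These libraries also had the lowest base quality and the lowest share of aligned reads, while Eβf replicate 1 had the highest of both. Whether these differences bear on the offsets was not tested. Low SD over these same libraries was the rule, so the size of the offsets in the stable transcripts is a description only. Control replicate 3 was the lowest library for 60 of the 150 stable transcripts and for 49.5% of the other ranked genes. Eβf replicate 1 was the lowest for 40 stable transcripts (26.7%) and for 20.5% of the others. The highest library was Eβf replicate 2 in 42 (28.0%), Eβf replicate 3 in 38 (25.3%) and control replicate 1 in 34 (22.7%) stable transcripts. Among the other ranked genes Eβf replicate 2 was the highest in 17.7%, Eβf replicate 3 in 41.7% and control replicate 1 in 13.7%.

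The lowest library was also counted by level. Of the 38 stable transcripts at 300 FPKM or more, 25 were lowest in control replicate 3 and 1 in Eβf replicate 1. Their median deviation was -0.10 in Eβf replicate 1 and -0.32 in control replicate 3. Of the 31 at 50 to 300 FPKM, 14 were lowest in control replicate 3 and 8 in Eβf replicate 1. Of the 81 under 50 FPKM, 31 were lowest in Eβf replicate 1 and 21 in control replicate 3. Their median deviation was -0.21 in Eβf replicate 1 and -0.16 in control replicate 3. The median fold change was 0.09 in the high class, 0.06 in the middle class and 0.09 in the low class. The counts by level were not set against those of the other ranked genes, so they are not shown to be particular to the stable transcripts.

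**Figure D3:**
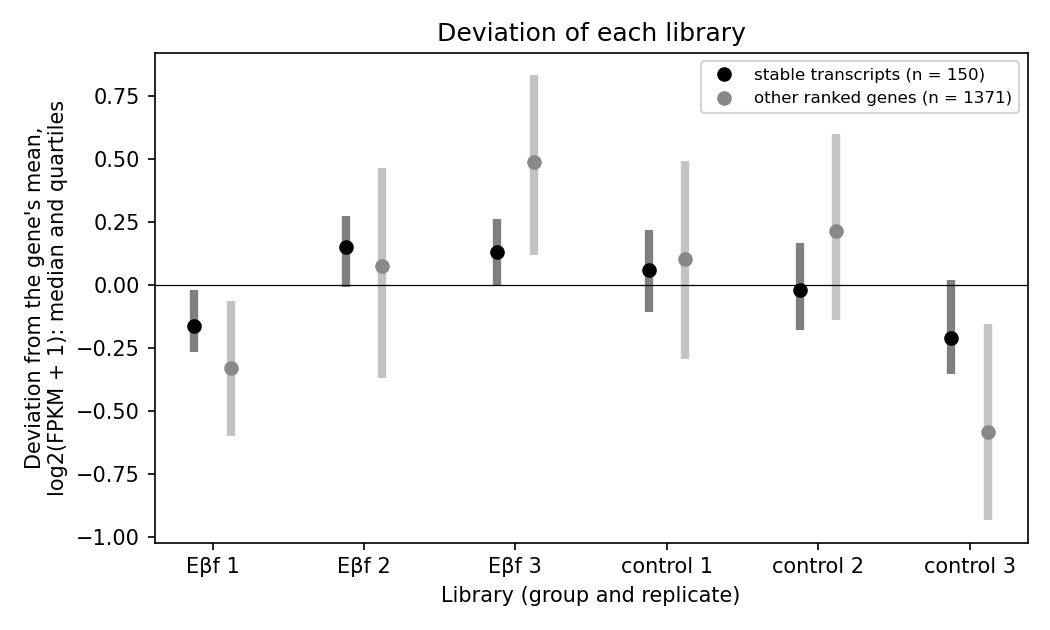
Deviation of log2(FPKM + 1) from each gene's mean in each library (points, medians; bars, lower to upper quartile) for the 150 stable transcripts in black and the other 1371 ranked genes in grey, with Eβf libraries on the left. Control replicate 3 is the lowest library in both sets, with medians of -0.21 and -0.58, and Eβf replicate 3 is at 0.13 in the stable transcripts and at 0.49 in the others.

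The IDs of the table start with evm or with MSTRG, the prefix that StringTie gives by default to the loci it assembles from reads. The stable transcripts were 103 evm genes (68.7%) and 47 MSTRG loci, close to the 70.0% evm among all ranked genes and above the 53.3% among the genes tested. At 300 FPKM or more, 32 of the 38 were evm genes (84.2%, with 79.6% of the ranked genes at that level). Under 50 FPKM it was 51 of 81, with 63.4% of the ranked genes.

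Not all 150 are separate measurements. Of the IDs, 5 stand for a further ID with identical values in every library, among them evm_007032 with evm_007029 and MSTRG.19086 with evm_010019. Beyond identical values, 3 pairs of stable transcripts had FPKM in a constant ratio. MSTRG.5625 had 36.9, 51.0 and 55.1 FPKM in the Eβf libraries and 52.6, 47.9 and 51.4 FPKM in the control libraries, and MSTRG.5626 had 11.4, 15.7 and 17.0 FPKM in Eβf and 16.2, 14.7 and 15.8 FPKM in the control. MSTRG.5625 was 3.25 times MSTRG.5626 in each of the 6 libraries. MSTRG.19102 was 10.55 times MSTRG.19101 in every library, and MSTRG.21701 was 0.205 times MSTRG.21702. Members of such a pair repeat 1 profile, so the list holds 147 distinct profiles.

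A further 3 stable transcripts were proportional to a gene outside the list. MSTRG.17101 was 0.11 times MSTRG.17100, MSTRG.6861 was 0.44 times MSTRG.6860, and MSTRG.4304 was 0.8 to 0.809 times MSTRG.4305, where in each case the last named is the stable transcript. All 9 stable transcripts concerned are MSTRG loci, 9 of the 47. Among the 6740 genes at 1 FPKM or more in all libraries, 109 such pairs were found at a tolerance of 0.01 in log2, and all 109 joined MSTRG loci with consecutive numbers, with 0 pairs that held an evm gene. Genes with identical values were counted once before this search, so identical evm genes could not appear as a pair. Such evm genes did occur with consecutive numbers. They were evm_001784 with evm_001785, evm_009464 with evm_009465 and evm_011535 with evm_011534, where the first named is the stable transcript. Stable transcripts with consecutive evm numbers, both kept in the list, were not proportional. The genes evm_010287 and evm_010288 had a Pearson r of 0.10 over the 6 libraries, and evm_007032 and evm_007033 had 0.69.

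Which transcripts appear stable depended strongly on how libraries were scaled to each other. The deposited FPKM were used without further scaling. Median-of-ratios scaling divides each library by the median, over the genes above 0 everywhere, of its ratio to the gene's geometric mean. The divisors were 0.774, 0.965 and 1.53 for Eβf replicates 1 to 3 and 1.08, 1.28 and 0.752 for control replicates 1 to 3. After this scaling the median stable transcript stood at 0.24, 0.24 and -0.43 in Eβf replicates 1 to 3 and at 0.00, -0.32 and 0.23 in control replicates 1 to 3. Eβf replicate 1 and control replicate 3, the lowest as deposited, were thus among the highest after scaling, and Eβf replicate 3 was the lowest. The SD of the stable transcripts was larger than before in 131 of 150, with a median of 0.378, while that of the other ranked genes was smaller, with a median of 0.533 against 0.656 as deposited. The stable transcripts were chosen for low SD on the deposited values, so this contrast is in part built in by the choice. When the rule was applied again to scaled values, 19 of the 150 were chosen again, and after quantile normalization 33 were. Both lists contained 10 of them, among them MSTRG.10461, evm_001126 and evm_008900. The list drawn after median-of-ratios scaling had a median SD of 0.227 on its own scale. That drawn after quantile normalization had 0.212, against 0.278 for the stable transcripts as deposited.

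The lowest SD of the list was not kept under scaling. The SD of evm_001432 was 0.427 with median-of-ratios scaling and 0.371 with quantile normalization, against 0.109 as deposited. The SD of MSTRG.4189 was 0.366 with median-of-ratios scaling and 0.0912 with quantile normalization, against 0.18 as deposited. MSTRG.10461 had 24.0, 32.5 and 35.9 FPKM in the Eβf libraries and 26.6, 26.6 and 23.1 FPKM in the control libraries, and its SD was 0.241 as deposited, 0.265 with median-of-ratios scaling and 0.167 with quantile normalization. Of 18 other ways of drawing up the list, evm_001432, MSTRG.25405 and MSTRG.10461 were chosen in 16 each, as was evm_001126, and 0 of the 150 were chosen in all 18. MSTRG.25405 had 48.5, 44.7 and 66.5 FPKM in Eβf and 50.6, 47.1 and 52.1 FPKM in the control, where Eβf replicate 3 was the highest library. The median over the list was 13 of 18.

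**Figure D4:**
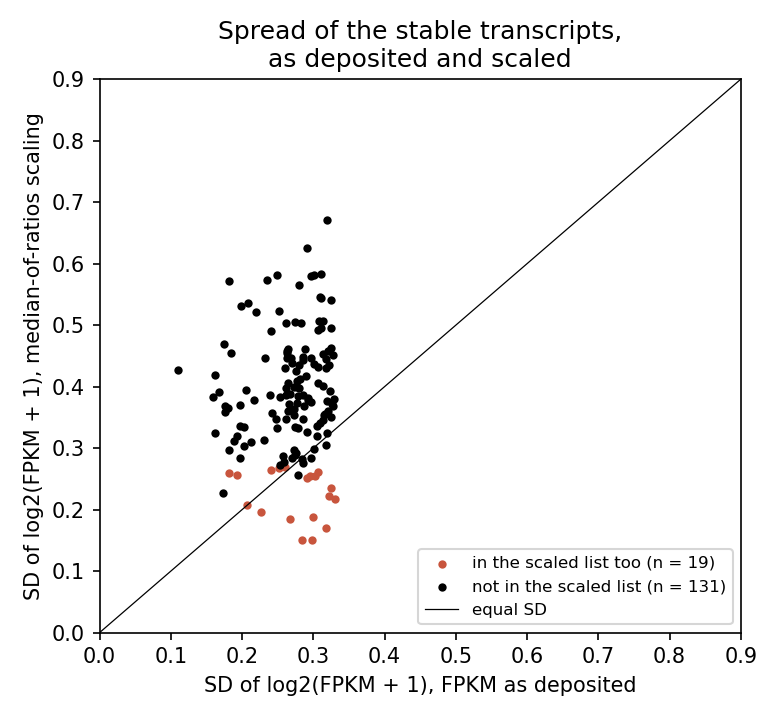
SD of log2(FPKM + 1) of each of the 150 stable transcripts with FPKM as deposited (x axis) and after median-of-ratios scaling (y axis), with the line of equal SD. Most points (131 of 150) lie above the line, up to an SD of 0.671, and the 19 transcripts that were chosen again after scaling are in red. The transcripts were chosen for low SD on the x axis, so a larger SD on the y axis is in part built in.

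A library that took no part in a choice can be read against the genes chosen without it. For each library in turn, the 150 genes of lowest SD in the other 5 were read in the library left out, as its difference in log2(FPKM + 1) from the mean of the other 5. The median size of this difference was 0.43, 0.36 and 0.40 for Eβf replicates 1 to 3 and 0.33, 0.29 and 0.56 for control replicates 1 to 3. For the other genes ranked in the same 5 libraries it was 0.58, 0.50 and 0.71 for Eβf replicates 1 to 3 and 0.49, 0.51 and 0.91 for control replicates 1 to 3. The chosen genes were thus nearer to the level of the other 5 in each of the 6 libraries. These medians were above 0.278, the median SD of the stable transcripts, in all 6. A difference from the mean of 5 libraries and an SD over 6 are unlike measures, however, and the lists differ too. The floor of 10 FPKM held only in the 5 libraries of the choice, for chosen and other genes alike. Of the 150 chosen genes, 22, 5 and 4 were below it in Eβf replicates 1 to 3 and 5, 6 and 17 in control replicates 1 to 3.

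Of the 150 genes chosen without it, control replicate 2 held 120 within 0.5 of the mean of the others, the largest number, and control replicate 3 held 65, the smallest. The corresponding shares were 80.0% and 43.3% of the chosen genes, and 49.6% and 24.1% of the other ranked genes. Differences over 1 in size were seen in 32 chosen genes (21.3%) in control replicate 3 and in 6 (4.0%) in control replicate 2. Among the other ranked genes these shares were 45.0% and 21.8%. For the chosen genes the Eβf libraries lay between these, with 86, 98 and 92 genes within 0.5 in replicates 1 to 3 (57.3%, 65.3% and 61.3%). Of the other ranked genes 43.6%, 49.9% and 35.5% were within 0.5. Past 1 were 16, 10 and 13 chosen genes (10.7%, 6.67% and 8.67%), against 21.4%, 20.4% and 31.4% of the others. Without control replicate 3, 79 of the stable transcripts were chosen again, and without Eβf replicate 1 there were 91. Without each of the other 4 libraries it was 102 to 122. Only 25 of the 150 were chosen whichever library was left out, among them evm_001432, evm_009487 and MSTRG.25405.

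**Figure D5:**
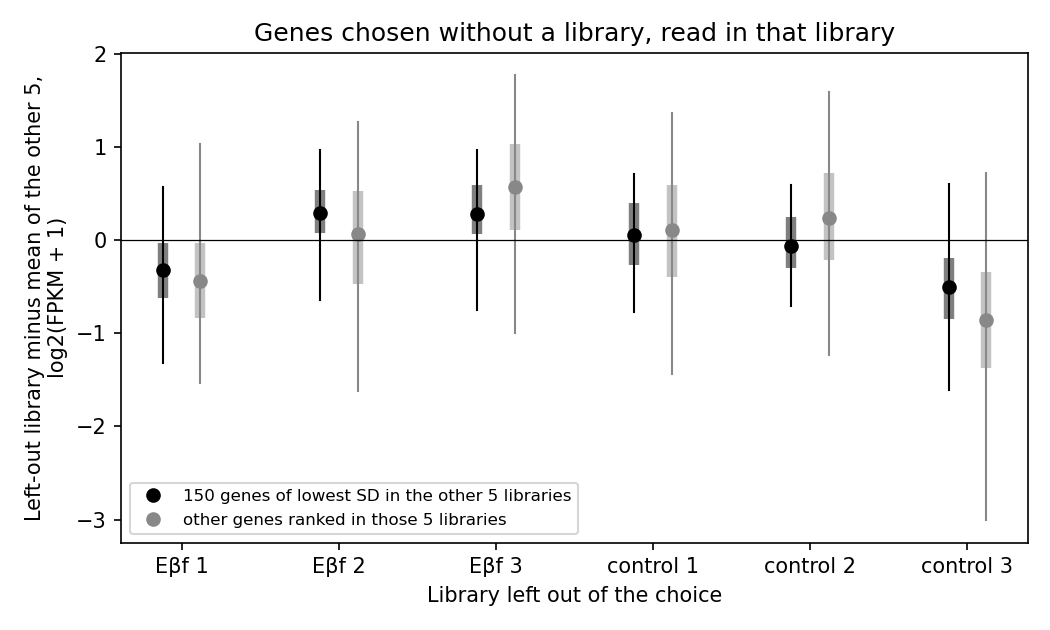
Difference in log2(FPKM + 1) between a left-out library and the mean of the other 5, for the 150 genes of lowest SD in those 5 (black) and for the other genes ranked there (grey). Points are medians, thick bars run between the quartiles and thin lines between the percentiles 5 and 95; the medians of the chosen genes run from -0.50 in control replicate 3 to 0.29 in Eβf replicate 2.

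Lists were also drawn from 1 diet group alone and read in the other. The floor of 10 FPKM then held only in the group of the choice, and 36 of the 150 genes chosen in Eβf and 30 of the 150 chosen in the control were below it in at least 1 library of the other group. The fold changes of these lists use the group of the choice too, so choice and readout are not fully separate, and the values are a description. The 150 genes of lowest SD in the 3 Eβf libraries had a median SD of 0.101 there and of 0.438 in the control libraries. The 150 of lowest SD in the 3 control libraries had a median SD of 0.0929 there and of 0.453 in the Eβf libraries. The remaining genes that passed the floor had a median SD of 0.593 in the control libraries when ranked in Eβf and of 0.552 in the Eβf libraries when ranked in the control. The size of the log2 fold change between the groups had a median of 0.47 in the genes chosen in Eβf, against 0.70 in the remaining genes, and 52.7% of them lay within 0.5, against 36.4%. In the genes chosen in the control it was 0.59, against 0.64 in the remaining genes, and 40.7% of them lay within 0.5, against 40.5%. Differences over 1 in size were seen in 26.7% of the genes chosen in Eβf, against 34.4% of the remaining genes. In those chosen in the control it was 24.0%, against 30.9%. The share with non-overlapping groups went the other way. It was 47.3% of the genes chosen in Eβf, against 31.0% of the remaining genes, and 52.7% of those chosen in the control, against 28.4%. Low SD narrows the range in the group of the choice, so this share is in part built in. For the list chosen in the control, the direction of the share within 0.5 depended on the processing. It was 51.3% with quantile normalization, against 43.7% of the remaining genes. With median-of-ratios scaling it was 38.0%, against 41.8%, and with a pseudocount of 0.1 it was 37.3%, against 39.6%.

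The 2 lists of 150 had 4 genes in common. They were evm_001432, evm_000531, evm_002432 and MSTRG.622, and the first of these alone is a stable transcript. The stable transcripts included 38 of the genes chosen in Eβf and 26 of those chosen in the control.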

How the data were processed

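Per the labels and the methods of the study, the authors aligned paired-end reads with HISAT2, assembled known and new transcripts with StringTie, counted reads per gene and deposited FPKM for 6 libraries in 1 table. Versions of these tools and the genome build were not given in the sources used here. Line 2 of the table, a further set of library codes, was left out. FPKM relates to the fragments of each library, so a few abundant genes can shift all others, and no count model could be used.

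The members, the gene rule and the tests were chosen with earlier results of these data known. Genes with 1 FPKM or more in at least 3 libraries were fitted as log2(FPKM + 1) with limma 3.58.1 (R 4.3.3), group as the only term, a mean-variance trend and Benjamini-Hochberg adjustment at 0.05 (the study tested read counts, which FPKM does not retain). The fit was checked on simulated data. Values over the members were given without a test, because the rule used the same values. Named were the 10 members of lowest SD, the 5 of highest and of lowest mean FPKM, the 3 of most positive and most negative fold change, 3 on each side of the SD limit and the 3 chosen under most alternatives. Other genes were named after their values were seen, as members of a pair, a shared list or an extreme. Alternatives were a pseudocount of 0.1, other filters, floors of 5 and 20 FPKM, other measures of spread, 2 scalings, a replicate block, lists from 1 diet group and each library left out. Proportional genes counted once, and other scales for the left-out readings, were added after seeing the data. Lists were drawn up in Python 3.11.15 using pandas 2.3.3, scipy 1.17.1 and numpy 2.4.6, and plotted using matplotlib 3.10.9.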

Additional observations from a re-analysis of the deposited data

How the results depend on the processing

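The list kept 102 or more of its 150 members with a pseudocount of 0.1 (146), the coefficient of variation (133), the SD within the groups (118), floors of 5 and 20 FPKM (104 and 102), the most abundant genes kept in (141), no overlap rule (132), identical genes kept (144) and proportional genes counted once (147, chosen after seeing the data). It kept 19 with median-of-ratios scaling, 33 with quantile normalization, 26 when drawn from the control libraries and 38 when drawn from the Eβf libraries, and 79 to 122 with 1 library left out. The cause of these losses was not tested. The median log2 fold change of the members was 0.02 to 0.19 with 1 library left out. It was 0.03 with median-of-ratios scaling, where 83 of 150 were above 0, and -0.22 with quantile normalization, where 23 were. Quantile normalization moved the median of all genes tested from 0.16 to 0.04. The members called by limma were 0 under all 13 alternatives, with 0 at an unadjusted p under 0.05 in each. These counts follow from the choice on low SD and overlapping groups and are no mark of robustness. Over all genes tested the main fit called 2.05%, and 15.5% had an unadjusted p under 0.05. Some alternatives called hardly any gene at all, as given below.

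Over all genes tested, limma called 245 genes, 143 with a pseudocount of 0.1, 6 without the filter and 2 to 380 with 1 library left out (2 without control replicate 2, 380 without control replicate 3). Of the calls 74.3% were higher in Eβf, 63.3% with median-of-ratios scaling and 58.9% with quantile normalization. With the replicate block limma called 0 genes, and 1408 had an unadjusted p under 0.05. The deviations of same-numbered libraries had correlations of 0.15, -0.33 and -0.16 over genes for numbers 1 to 3. With 3 libraries a group and offsets that run over whole libraries, these values cannot decide whether the numbers mark pairs. The main fit had no replicate block because the methods of the study describe no pairing. Whether the libraries were paired remains unknown. Without counts, the part of the counting error in an SD of 0.11 to 0.33 is unknown.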
